A study of Mus musculus with 28 samples.

Results

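Hemogenic endothelium (HE) of the E9.5 mouse embryo was compared with endothelial cells (EC) of the same day across all genes, using the 3 libraries labelled HE and the 3 labelled EC at E9.5, 6 of the 28 libraries of the series. Each library was made from 100 cells sorted into lysis buffer. Embryos of both groups carried the transgene labelled 23GFP, and the tissue of both is labelled PAS+VU, a term that the labels leave unexpanded. A reporter of that name is known in which an enhancer of Runx1 drives GFP. The labels leave the sort gates out, so Runx1 and what is expressed with it may have entered the choice of the cells. The labels do not say whether replicates were separate embryos or litters, so the p-values rest on a spread between libraries that may be technical. HE and EC libraries of E8.5 (4 and 3) and of E10.5 (3 and 3) and the E9.5 population labelled pro-HSC/HPC (3) are used for comparison.

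Blood stem and progenitor cells of the embryo arise from a small fraction of endothelial cells, mostly in arteries, which lose their endothelial character and bud into the lumen. The switch needs the transcription factor Runx1, and Gfi1 and Gfi1b act below it to shut down endothelial genes. Notch signals, blood flow and BMP signals shape the arterial endothelium in which it takes place.

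The HE libraries held 20494835, 24312768 and 21537884 counts and the EC libraries 23721089, 25411270 and 22803916. Between 14512 and 15255 genes had a count in the HE libraries, against 14496 to 15497 in the EC libraries. Levels are given as CPM, counts per 1000000 counts of the TMM-scaled library, where 3 counts correspond to 0.131 to 0.142 CPM in an HE library and to 0.125 to 0.131 CPM in an EC library. Across genes, libraries of 1 group correlated at 0.971 to 0.979 and an HE with an EC library at 0.959 to 0.974. EC replicate 3 stood apart in genes of mesenchyme and EC replicate 2 in genes of germ cells and epithelium, as described with the markers of other cell types.

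Both groups had endothelial profiles. Cdh5, the endothelial cadherin, had 756, 602 and 997 CPM in HE libraries and 519.9, 383 and 652 CPM in EC libraries. Kdr, a VEGF receptor, had 421, 345 and 386 CPM in HE libraries and 398, 364 and 418 CPM in EC libraries. The groups overlapped for both genes. Of mature blood, Ptprc, which encodes CD45, had 1 count in all HE libraries together and 1 in all EC libraries together. Itga2b, the CD41 gene of early blood progenitors, had 6.95, 5.81 and 11.7 CPM in HE libraries and 5.86, 4.53 and 6.6 CPM in EC libraries, which overlapped. Spn, which encodes CD43, had 0.0945, 0.0436 and 2.81 CPM in HE libraries and 0 in all EC libraries, so that 1 HE library held nearly all of its counts.

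Of the 15238 genes tested, 46 (0.302%) were higher in HE and 0 were lower by the quasi-likelihood test of edgeR at a Benjamini-Hochberg adjusted p under 0.05. These genes are called below. At an unadjusted p under 0.05 the numbers were 629 higher (4.13%) and 368 lower (2.42%), and DESeq2 called 145 higher and 11 lower. The called log2 differences ran from 1.10 to 7.28 with a median of 2.26, against a median of -0.01 over all genes tested. In all 46 the HE libraries lay above the EC libraries, as they did in 1185 of all genes (7.78%). The number of called genes rests on single libraries: it was 29, 38 and 32 when HE replicates 1, 2 and 3 were left out in turn, and 19, 11 and 31 when EC replicates 1, 2 and 3 were. In all 6 of these fits 10 genes were called: Runx1, Cd44, Gja4, Sat1, Nupr1, Fbn1, Akr1c14, Vwf, Pdlim1 and Akap5. With the replicate number as a block, edgeR called 53 higher and 0 lower, with a block within each day 150 and 18, and with a block in a fit of only these 6 libraries 411 and 239. Whether the numbers pair the libraries is not settled by the labels. In deviations from its group mean, each of the 6 libraries correlated best with the same-numbered library of the other group. The block within each day was chosen after seeing the data, and some of its values are given below beside those without a block. Counts of list members called with that block are read against its 150 higher and 18 lower among all 15238 genes tested. Counts of lists below are read against 0.302% of all genes tested called, 47.7% with a log2 difference above 0, 51.3% below 0 and a median of -0.01. In bulk samples a larger share of cells that express a gene and more RNA per cell cannot be told apart.

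**Figure D1:**
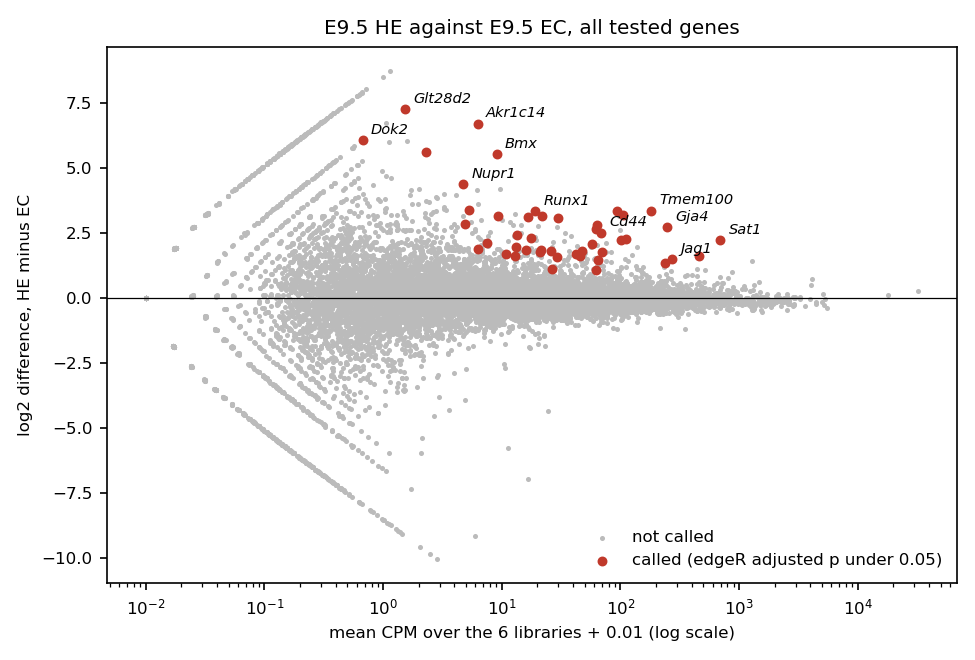
Difference between E9.5 HE and EC for each of the 15238 genes tested (vertical axis, log2) against its mean level over the 6 libraries (horizontal axis, CPM + 0.01, log scale). Red points are the 46 called genes, all above 0, and grey points are all other genes.

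Transcription factors among the called genes were Runx1, Ikzf2, Nkx2-3 and Isl1. Runx1 (chromosome 16, 92601711 to 92826319, minus strand, mm9) had 36.9, 30.8 and 37.4 CPM in HE libraries and 3.12, 3.37 and 3.76 CPM in EC libraries. Its log2 difference of 3.36 ± 0.38 (SE, n = 3 each here and below) had the smallest p of all genes (edgeR adjusted p = 3.5e-05), and the libraries of each group were close together. Ikzf2, which encodes the lymphoid and stem cell zinc finger factor Helios, had 15.4, 17.7 and 30.1 CPM in HE libraries and 7.86, 5.35 and 3.02 CPM in EC libraries (1.96 ± 0.42, edgeR adjusted p = 0.035). Nkx2-3, a homeobox factor of the vessels of gut and spleen, had 24.9, 5.85 and 19.7 CPM in HE libraries and 1.16, 2.16 and 2.36 CPM in EC libraries (3.15 ± 0.57, edgeR adjusted p = 0.0075), with HE replicate 2 far below the other HE libraries. Isl1, a LIM homeobox factor of cardiac and motor neuron progenitors, had 45.1, 24.7 and 28.2 CPM in HE libraries and 11.1, 6.86 and 10.4 CPM in EC libraries (1.79 ± 0.34, edgeR adjusted p = 0.0091). The last 3 depend on single libraries. For Ikzf2 the adjusted p was 0.22 without HE replicate 3, just over the threshold without HE replicate 2, and 0.055, 0.22 and 0.22 when EC replicates 1, 2 and 3 were left out in turn. For Nkx2-3 it was 0.053 without HE replicate 1, 0.091 without EC replicate 1 and 0.077 without EC replicate 2, and for Isl1 it was 0.12 without HE replicate 1 and 0.14 without EC replicate 2.

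Of 24 hematopoietic transcription factors tested, Runx1 and Ikzf2 were called, against 0.302% of all genes tested. Of the 24, 17 had a log2 difference above 0, and the median was 0.23. In 7 every HE library lay above every EC library, against 7.78% of all genes. At an unadjusted p under 0.05, 6 were higher, against 4.13%. Gfi1 had 3.5, 3.27 and 1.36 CPM in HE libraries and 0.0416, 0 and 0.831 CPM in EC libraries, without overlap (3.21 ± 0.89, edgeR adjusted p = 0.16). Gfi1b had 3 counts in HE and 0 in EC, summed over libraries. Gata2, a zinc finger factor of stem cells and endothelium, had 113, 91.3 and 89.5 CPM in HE libraries and 60.1, 51.1 and 59.9 CPM in EC libraries, again without overlap (0.78 ± 0.21, edgeR adjusted p = 0.13). Both groups held the factors that blood and endothelium share. Tal1 had 34.9, 29.2 and 36.4 CPM in HE libraries and 37.7, 23.5 and 41.4 CPM in EC libraries, Lmo2 123, 119 and 206 CPM in HE libraries and 138, 107 and 208 CPM in EC libraries, and the groups overlapped for each. Fli1, an ETS factor, had 1012, 981 and 1065 CPM in HE libraries and 797, 831 and 877 CPM in EC libraries, without overlap but with a log2 difference of 0.29 ± 0.31 (edgeR adjusted p = 1). Cbfa2t3, a corepressor that binds Tal1 complexes, had 76.5, 69.6 and 75.0 CPM in HE libraries and 37.6, 35.3 and 42.2 CPM in EC libraries (0.94 ± 0.25, edgeR adjusted p = 0.13). With the block within each day 4 of the 24 were called higher, against 150 of all 15238 genes tested. Gata2 and Cbfa2t3 were among the 4 (edgeR adjusted p = 0.031 and 0.049). Gfi1 and Fli1 were not.

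Runx1, Cd44 and Gja4 were the 3 genes of smallest p, and the stretch from 250 bases before to 50 bases after each annotated start is given here for them, from RefSeq on GRCm38.p6 and on the minus strand, in which each of these genes is read. Capitals mark a match to the RUNX motif searched (TGTGGT or TGCGGT, or its reverse complement) or to the RBPJ motif searched (GTGGGAA, or its reverse complement). Runx1 has an entry for each of 2 starts, and the distal one (chr16:92826025-92826324) holds 2 copies of ACCACA, the reverse complement of TGTGGT, beginning 29 and 37 bases after the start. The proximal Runx1 entry is chr16:92697280-92697579, the Cd44 entry chr2:102901616-102901915 and the Gja4 entry chr4:127313990-127314289, and these hold neither motif.
Runx1 distal: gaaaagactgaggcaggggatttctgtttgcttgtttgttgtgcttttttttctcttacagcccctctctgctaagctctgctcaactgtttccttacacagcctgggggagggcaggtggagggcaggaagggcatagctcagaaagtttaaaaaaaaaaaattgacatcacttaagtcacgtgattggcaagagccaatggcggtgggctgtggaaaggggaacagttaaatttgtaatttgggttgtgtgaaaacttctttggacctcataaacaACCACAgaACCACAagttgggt
Runx1 proximal: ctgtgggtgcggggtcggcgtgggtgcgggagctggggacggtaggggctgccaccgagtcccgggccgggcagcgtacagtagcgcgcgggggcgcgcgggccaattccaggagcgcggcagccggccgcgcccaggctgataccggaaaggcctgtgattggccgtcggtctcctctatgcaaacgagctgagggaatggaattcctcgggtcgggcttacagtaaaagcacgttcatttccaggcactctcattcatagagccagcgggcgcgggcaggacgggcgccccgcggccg
Cd44: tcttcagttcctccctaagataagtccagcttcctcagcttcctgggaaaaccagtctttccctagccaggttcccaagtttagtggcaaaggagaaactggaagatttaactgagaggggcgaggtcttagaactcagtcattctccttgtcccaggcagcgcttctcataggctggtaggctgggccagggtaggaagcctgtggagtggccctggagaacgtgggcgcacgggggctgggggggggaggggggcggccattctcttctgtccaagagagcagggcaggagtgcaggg
Gja4: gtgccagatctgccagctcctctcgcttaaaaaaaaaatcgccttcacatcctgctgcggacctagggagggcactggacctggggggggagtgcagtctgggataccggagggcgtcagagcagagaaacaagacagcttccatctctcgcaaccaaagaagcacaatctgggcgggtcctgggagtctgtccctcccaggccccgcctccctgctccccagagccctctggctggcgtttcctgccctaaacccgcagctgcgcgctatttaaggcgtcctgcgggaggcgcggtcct

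Such an entry was found for 36 of the 46 called genes, 4 of them under another symbol. On either strand, a RUNX match was present for 8 of the 36 (22.2%) and for 24.2% of the tested genes with an entry. The RBPJ motif was present for 4 (11.1%) and 7.25%, a GATA motif (AGATAA or TGATAA) for 7 (19.4%) and 13.1%, a SOX motif (ACAATG or ACAAAG) for 9 (25%) and 24.1%, and an ETS motif (AGGAAG or CCGGAA) for 11 (30.6%) and 55.4%. A match describes the letters in this window, and distal enhancers lie outside it.

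Arterial genes were the group with most called members. Of 24 arterial genes tested, 6 were called, against 0.302% of all genes tested, and 24 had a log2 difference above 0, against 47.7%. In 17 the HE libraries all lay above the EC libraries, against 7.78%. Their median log2 difference was 1.56. The called members were the connexins Gja4 and Gja5, which form gap junctions between arterial endothelial cells, Tmem100, a membrane protein induced by BMP signals in arterial endothelium, the kinase Bmx, the growth factor Vegfc and the Notch ligand Jag1.

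Gja4 (chromosome 4, 126988664 to 126991283, minus strand, mm9) had 448, 531 and 317 CPM in HE libraries and 72.7, 63.6 and 60.1 CPM in EC libraries (2.72 ± 0.37, edgeR adjusted p = 0.00045). Gja5 had 214, 139.6 and 156 CPM in HE libraries and 10.48, 11.05 and 28.6 CPM in EC libraries (3.35 ± 0.58, edgeR adjusted p = 0.0048), and EC replicate 3 was the highest of the EC libraries. Tmem100 had 419, 335 and 230.3 CPM in HE libraries and 36.5, 26.6 and 32.4 CPM in EC libraries (3.37 ± 0.59, edgeR adjusted p = 0.0054). All 3 genes were several times higher in every HE library than in any EC library. Bmx had 27.9, 11.2 and 14.2 CPM in HE libraries and 0.0416, 0.0432 and 1.05 CPM in EC libraries, of which replicates 1 and 2 were below the level of 3 counts (5.54 ± 1.00, edgeR adjusted p = 0.0075). Vegfc, the ligand of the lymphatic receptor Flt4, had 113, 78.0 and 142 CPM in HE libraries and 16.3, 9.28 and 21.6 CPM in EC libraries (2.82 ± 0.46, edgeR adjusted p = 0.0023). Jag1 had 437, 354 and 419 CPM in HE libraries and 133, 137 and 153 CPM in EC libraries (1.51 ± 0.33, edgeR adjusted p = 0.041). Without EC replicate 1 the adjusted p was 0.075 for Gja5 and 0.086 for Bmx, and without EC replicate 2 it was 0.077 for Gja5, 0.077 for Tmem100, 0.099 for Bmx and 0.051 for Vegfc. Jag1 lost its call without any 1 of the 6 libraries, with adjusted p between 0.059 and 0.24.

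Arterial members that missed the threshold included targets of Notch. Hey1 had 76.5, 77.1 and 78.8 CPM in HE libraries and 18.8, 20.3 and 30.7 CPM in EC libraries (1.74 ± 0.49, edgeR adjusted p = 0.18). Hey2 had 67.1, 34.9 and 50.6 CPM in HE libraries and 6.2, 3.67 and 13.2 CPM in EC libraries (2.72 ± 0.70, edgeR adjusted p = 0.11). Neither gene's groups overlapped. Dll4, the arterial Notch ligand, had 94.1, 69.1 and 107 CPM in HE libraries and 29.9, 19.3 and 44.0 CPM in EC libraries (1.54 ± 0.66, edgeR adjusted p = 0.66), and the hypoxia factor Epas1 had 119, 96.5 and 134 CPM in HE libraries and 36.3, 18.04 and 48.6 CPM in EC libraries (1.76 ± 0.47, edgeR adjusted p = 0.13). Mecom, a zinc finger factor needed by stem cells and found in arteries, was on the stem cell associated list and not on the arterial list. It just missed the threshold, with 238, 159 and 171 CPM in HE libraries and 68.9, 46.7 and 62.2 CPM in EC libraries (1.67 ± 0.38, edgeR adjusted p = 0.052). With the block within each day the edgeR adjusted p was 0.00012 for Mecom, 0.0063 for Epas1 and 0.025 for Hey2. That block called 10 of the 24 arterial genes higher, against 150 of all 15238 genes tested, and Hey1 and Dll4 were not among the 10.

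Of 14 venous and lymphatic genes tested, 1 was called, against 0.302% of all genes tested, and 9 had a log2 difference below 0, with a median of -0.18. The called gene was Vwf, the platelet-binding glycoprotein, with 238, 137 and 199 CPM in HE libraries and 18.1, 5.7 and 39.3 CPM in EC libraries (3.19 ± 0.50, edgeR adjusted p = 0.0016). Its EC libraries were spread widely, with EC replicate 2 lowest and EC replicate 3 highest. Nr2f2, which specifies veins, had 192, 262 and 196 CPM in HE libraries and 448, 526 and 495 CPM in EC libraries (-1.18 ± 0.68, edgeR adjusted p = 0.87). Aplnr, the apelin receptor of veins, had 116, 139.8 and 152 CPM in HE libraries and 275, 314 and 309.7 CPM in EC libraries (-1.14 ± 0.52, edgeR adjusted p = 0.7). Nrp2, a coreceptor of lymphatic VEGF signals, had 57.6, 52.0 and 64.5 CPM in HE libraries and 149, 94.9 and 147 CPM in EC libraries (-1.17 ± 0.47, edgeR adjusted p = 0.61). For these 3 genes every HE library lay below every EC library, and edgeR called none of them in the fit of all 28 libraries. Limma voom called all 3 lower, at adjusted p of 0.04, 0.0051 and 0.0037 for Nr2f2, Aplnr and Nrp2, as did edgeR with only the 6 libraries in the fit, at 0.012, 0.012 and 0.032. None of the 3 was called lower by DESeq2, by edgeR with the block within each day, or in any fit without 1 library. The same held with no filter, with the stricter filter and with the 19 HE and EC libraries. Of 28 genes of endothelial identity 0 were called by edgeR and 23 had a log2 difference above 0 (median 0.42). At an unadjusted p under 0.05, 5 were higher, against 4.13% of all genes tested. In 10 every HE library lay above every EC library, against 7.78%. With the block within each day 2 of the 28 were called higher, against 150 of all 15238 genes tested.

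**Figure D2:**
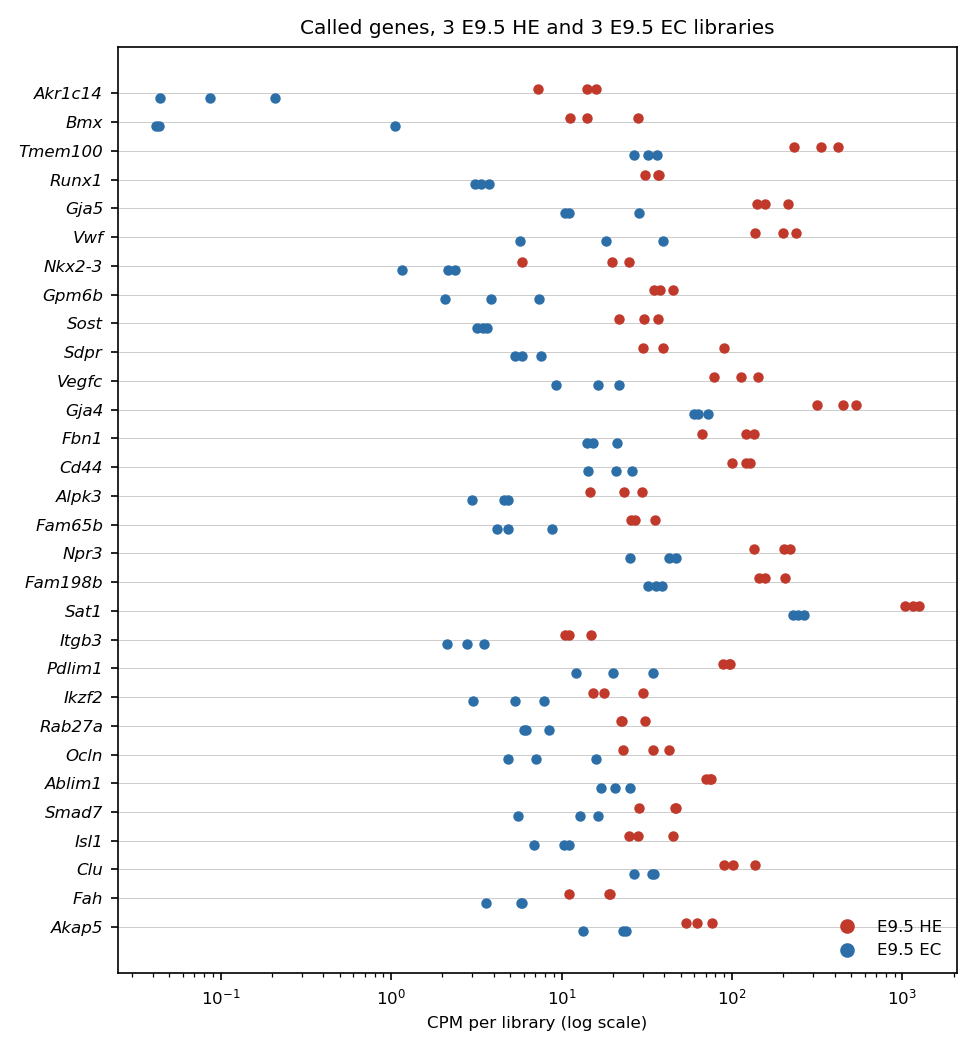
CPM (log scale) of the 30 called genes given in full, in each of the 3 E9.5 HE libraries (red) and the 3 E9.5 EC libraries (blue), ordered by log2 difference from the top. The red points lie to the right of the blue points for every gene.

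Among the other called genes, Cd44 (chromosome 2, 102651300 to 102741822, minus strand, mm9), the hyaluronan receptor, had 101, 122 and 128 CPM in HE libraries and 20.8, 14.4 and 25.9 CPM in EC libraries (2.52 ± 0.31, edgeR adjusted p = 0.00011). Npr3, the clearance receptor of natriuretic peptides, had 219, 135 and 203 CPM in HE libraries and 42.5, 25.3 and 46.7 CPM in EC libraries (2.28 ± 0.39, edgeR adjusted p = 0.0047). Itgb3, an integrin chain of platelets and activated endothelium, had 14.98, 10.999 and 10.502 CPM in HE libraries and 2.79, 2.12 and 3.5 CPM in EC libraries (2.12 ± 0.36, edgeR adjusted p = 0.0047). The groups were well separated for each. Ocln, a tight junction protein, had 42.6, 34.4 and 23.0 CPM in HE libraries and 15.9, 4.83 and 7.13 CPM in EC libraries (1.84 ± 0.34, edgeR adjusted p = 0.0075), with EC replicate 1 nearest to HE. Gpm6b, a membrane proteolipid, had 34.9, 38.0 and 45.2 CPM in HE libraries and 3.87, 2.07 and 7.39 CPM in EC libraries (3.15 ± 0.58, edgeR adjusted p = 0.0075). Without EC replicate 2 the adjusted p was 0.077 for Npr3, 0.077 for Itgb3, 0.11 for Ocln and 0.12 for Gpm6b. It was also 0.089 for Gpm6b without EC replicate 1, and 0.07 and 0.075 for Ocln without HE replicate 1 and without EC replicate 3.

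Fbn1, which encodes the microfibril protein fibrillin, had 134, 66.5 and 121 CPM in HE libraries and 14.1, 15.4 and 21.1 CPM in EC libraries (2.67 ± 0.40, edgeR adjusted p = 0.001). It was the called member among 27 extracellular matrix genes, against 0.302% of all genes tested. Of the 27, 20 had a log2 difference above 0 (median 0.61). Fn1, fibronectin, had 1425, 915 and 1180.0 CPM in HE libraries and 631, 445 and 667 CPM in EC libraries, without overlap (1.01 ± 0.25, edgeR adjusted p = 0.083). With the block within each day 6 of the 27 matrix genes were called higher, against 150 of all 15238 genes tested. Fn1 was among the 6 (edgeR adjusted p = 0.0034). Of 26 adhesion genes and integrins Cd44 and Itgb3 were called, against 0.302% of all genes tested, and 15 had a log2 difference above 0 (median 0.10). Slit2, a secreted ligand of Robo receptors, had 43.0, 43.8 and 43.7 CPM in HE libraries and 14.5, 10.1 and 19.1 CPM in EC libraries (1.58 ± 0.31, edgeR adjusted p = 0.012), and its 3 HE libraries were almost equal. Its adjusted p was 0.091 without EC replicate 1 and 0.19 without EC replicate 2. Ecm1 and the transporter chaperone Emb were also called, with log2 differences of 1.10 ± 0.25 and 1.47 ± 0.32 (edgeR adjusted p = 0.05 and 0.034). Both lost their calls without any 1 of the 6 libraries, with adjusted p from 0.078 to 0.3 for Ecm1 and from 0.073 to 0.26 for Emb.

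Called genes of signalling included Sost, Smad7 and Ret. Sost, a secreted inhibitor of Wnt receptors, had 30.4, 21.6 and 36.8 CPM in HE libraries and 3.45, 3.19 and 3.63 CPM in EC libraries (3.11 ± 0.60, edgeR adjusted p = 0.012). Smad7, an inhibitor of TGF-beta receptors, had 47.2, 28.3 and 46.0 CPM in HE libraries and 12.8, 5.57 and 16.3 CPM in EC libraries (1.81 ± 0.40, edgeR adjusted p = 0.041). Ret, the receptor tyrosine kinase of the GDNF family, had 17.0, 4.93 and 7.03 CPM in HE libraries and 0.832, 0.691 and 1.22 CPM in EC libraries (3.39 ± 0.75, edgeR adjusted p = 0.045). The HE libraries were uneven for Ret, with replicate 1 highest, and all lay above EC. For Sost the adjusted p was 0.095, 0.12 and 0.066 without EC replicates 1, 2 and 3. For Smad7 it was 0.2 and 0.14 without HE replicates 1 and 3 and 0.15 and 0.34 without EC replicates 1 and 2. For Ret it was 0.33 and 0.069 without HE replicates 1 and 3 and 0.26, 0.34 and 0.14 without EC replicates 1, 2 and 3.

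By pathway, called members are read against 0.302% of all genes tested. Jag1 was called among 24 Notch genes (17 above 0, median log2 0.50), Smad7 among 25 BMP and TGF-beta genes (19 above 0, median 0.51) and Vegfc among 23 VEGF and angiopoietin genes (17 above 0, median 0.35). Gja4 and Gja5 were the called members of 22 genes of flow response and vascular tone (18 above 0, median 0.57). Of 24 Wnt genes, a list that did not hold Sost, 0 were called and 10 were above 0 (median -0.13). With the block within each day 2 Notch, 4 BMP and TGF-beta, 3 VEGF and angiopoietin, 4 flow and 0 Wnt genes were called higher. The same block called 150 of all 15238 genes tested higher. Calcrl, the receptor subunit for adrenomedullin, had 1942, 1723 and 2019 CPM in HE libraries and 768, 617 and 707 CPM in EC libraries, a wide gap that missed the threshold without a block (1.44 ± 0.42, edgeR adjusted p = 0.21). With the block within each day Calcrl was called (edgeR adjusted p = 4.3e-07). Smad6, the inhibitory SMAD of BMP signals, had 32.2, 20.3 and 26.6 CPM in HE libraries and 7.86, 4.27 and 10.54 CPM in EC libraries (1.80 ± 0.47, edgeR adjusted p = 0.13), and Edn1, endothelin, had 139, 101 and 148 CPM in HE libraries and 33.2, 32.6 and 47.0 CPM in EC libraries (1.78 ± 0.63, edgeR adjusted p = 0.45). Neither of these overlapped between the groups. With the block within each day Smad6 was called (edgeR adjusted p = 0.015) and Edn1 was not. Cyp26b1, which degrades retinoic acid, had 66.5, 56.1 and 82.8 CPM in HE libraries and 18.4, 7.21 and 25.9 CPM in EC libraries (2.00 ± 0.47, edgeR adjusted p = 0.07). Of 17 retinoic acid genes 0 were called. At an unadjusted p under 0.05, 2 were higher, against 4.13% of all genes tested, and 2 lower, against 2.42%. With the block within each day 2 of the 17 were called higher, against 150 of all 15238 genes tested. Cyp26b1 was among the 2 (edgeR adjusted p = 0.0023).

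Enzymes and intracellular proteins made up the rest. Sat1, which acetylates spermidine and spermine in polyamine breakdown, had 1158, 1250.2 and 1039 CPM in HE libraries and 266, 244 and 228 CPM in EC libraries (2.22 ± 0.32, edgeR adjusted p = 0.0008). The aldo-keto reductase Akr1c14, which acts on steroids, had 7.23, 16.02 and 14.2 CPM in HE libraries and 0.208, 0.0863 and 0.0437 CPM in EC libraries (6.71 ± 1.01, edgeR adjusted p = 0.0016), from 822 counts over HE and 8 over EC. Nupr1, a stress-induced nuclear protein, had 10.8, 10.2 and 6.1 CPM in HE libraries and 0.0416, 0.561 and 0.7 CPM in EC libraries (4.38 ± 0.64, edgeR adjusted p = 0.0008). These 3 genes covered high, low and near-absent levels in EC. Pdlim1, a scaffold on actin fibres, had 89.2, 96.8 and 96.0 CPM in HE libraries and 12.1, 34.5 and 20.2 CPM in EC libraries (2.08 ± 0.33, edgeR adjusted p = 0.0018), with EC replicate 2 the highest of its group. Akap5, which anchors protein kinase A at the membrane, had 76.5, 53.7 and 62.6 CPM in HE libraries and 23.8, 22.9 and 13.3 CPM in EC libraries (1.68 ± 0.29, edgeR adjusted p = 0.0047). All 5 stayed called without any 1 of the 6 libraries.

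Rab27a, a GTPase of secretory granules, had 30.8, 22.6 and 22.2 CPM in HE libraries and 8.48, 6.04 and 6.21 CPM in EC libraries (1.86 ± 0.34, edgeR adjusted p = 0.0067). Clu, the secreted chaperone clusterin, had 89.7, 136 and 101 CPM in HE libraries and 26.8, 34.0 and 34.98 CPM in EC libraries (1.77 ± 0.32, edgeR adjusted p = 0.0067). Alpk3, an alpha-type kinase of muscle, had 29.6, 23.4 and 14.7 CPM in HE libraries and 4.87, 4.62 and 2.97 CPM in EC libraries (2.44 ± 0.43, edgeR adjusted p = 0.0054). HE and EC libraries were separate for each of them. Cdkn1c, an inhibitor of cyclin-dependent kinases linked to stem cell quiescence, had 382, 294 and 347 CPM in HE libraries and 115, 101 and 187 CPM in EC libraries (1.35 ± 0.29, edgeR adjusted p = 0.037). Sdpr, a component of caveolae, had 90.3, 29.9 and 39.5 CPM in HE libraries and 5.32, 7.6 and 5.86 CPM in EC libraries (3.09 ± 0.63, edgeR adjusted p = 0.02). For Sdpr and Cdkn1c HE replicate 1 was the highest library and the adjusted p without it was 0.18 and 0.18. Without EC replicate 1 the adjusted p was 0.086 for Clu, 0.26 for Cdkn1c and 0.15 for Sdpr. Without EC replicate 2 it was 0.091 for Rab27a, 0.052 for Clu, 0.051 for Alpk3, 0.34 for Cdkn1c and 0.12 for Sdpr, and without EC replicate 3 it was 0.056 for Rab27a, 0.051 for Alpk3 and 0.12 for Sdpr. Without HE replicate 3 that of Cdkn1c was 0.097.

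The other called genes given in full were Fam198b, with 205, 157 and 144 CPM in HE libraries and 39.0, 36.0 and 32.3 CPM in EC libraries, Fam65b, a RhoA inhibitor, with 35.4, 25.7 and 26.8 CPM in HE libraries and 4.87, 4.19 and 8.74 CPM in EC libraries, Ablim1, an actin-binding LIM protein, with 70.9, 74.9 and 74.7 CPM in HE libraries and 20.6, 17.1 and 25.1 CPM in EC libraries, and Fah, the last enzyme of tyrosine breakdown, with 11.1, 18.9 and 19.4 CPM in HE libraries and 5.86, 3.63 and 5.77 CPM in EC libraries. Their log2 differences were 2.24 ± 0.43, 2.30 ± 0.47, 1.81 ± 0.38 and 1.69 ± 0.35, with edgeR adjusted p of 0.012, 0.02, 0.025 and 0.021. Each lost its call when EC replicate 1 or EC replicate 2 was left out, with adjusted p from 0.086 to 0.23. Without EC replicate 3 it was 0.075 for Fam198b, 0.067 for Ablim1 and 0.067 for Fah, and without HE replicate 1 it was 0.064 for Fam198b and 0.1 for Fam65b. Ablim1 also lost its call without HE replicates 1, 2 and 3 (0.079, 0.065 and 0.08) and Fah without HE replicates 2 and 3 (0.09 and 0.1). In 7 called genes the HE mean was under 10 CPM. Among them, Dok2, a kinase adaptor of blood cells, had 88 counts over HE and 1 over EC, which is a ratio of 94.3 after scaling for depth (95% interval of counting error 16.5 to 3766). Glt28d2 had 198 counts over HE and 1 over EC, a ratio of 212 (37.6 to 8422). Sp110, an interferon-induced nuclear body protein, had 7.89, 12.7 and 5.2 CPM in HE libraries and 0.333, 1.47 and 1.79 CPM in EC libraries (2.84 ± 0.56, edgeR adjusted p = 0.013). These lost their calls without EC replicate 2, at adjusted p of 0.32 for Dok2, 0.23 for Glt28d2 and 0.091 for Sp110, and without EC replicate 1, at 0.19, 0.1 and 0.12. Dok2 and Glt28d2 also lost them without EC replicate 3 (0.21 and 0.17), Dok2 without HE replicates 2 and 3 (0.25 and 0.055), Glt28d2 without HE replicate 1 (0.092) and Sp110 without HE replicate 2 (0.074).

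Growth genes had small differences that lay to 1 side. Of 26 ribosome biogenesis genes tested, 26 had a log2 difference below 0, against 51.3% of all genes tested, and in 15 every HE library was below every EC library, against 6.60% of all genes. By edgeR 0 were called, and 8 had an unadjusted p under 0.05, against 2.42% of all genes. DESeq2, limma voom and edgeR with the replicate number as a block also called 0. With a block within each day edgeR called 4 lower, against 18 of all 15238 genes tested. With a block in a fit of only the 6 libraries it called 15, against 239 lower of 12818 genes tested. The list's median was -0.49. Dkc1, which modifies ribosomal RNA, had 195, 241 and 189 CPM in HE libraries and 305, 359 and 252 CPM in EC libraries (-0.55 ± 0.21, edgeR adjusted p = 0.53). Gnl3, which encodes nucleostemin, had 218, 266 and 247 CPM in HE libraries and 340.0, 356 and 387 CPM in EC libraries (-0.57 ± 0.22, edgeR adjusted p = 0.54). Myc, an activator of these genes, had 33.5, 62.5 and 61.2 CPM in HE libraries and 85.3, 108 and 112 CPM in EC libraries (-0.96 ± 0.44, edgeR adjusted p = 0.71). None of the 3 overlapped between the groups. With the block within each day the adjusted p was 0.044 for Dkc1, 0.073 for Gnl3 and 0.31 for Myc, and with the block in the fit of the 6 libraries it was 0.0078, 0.0056 and 0.0036.

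Cell cycle genes had smaller differences. Of 26 S phase genes 26 had a log2 difference below 0 (median -0.20), of 26 mitosis genes 25 (median -0.24), and 0 of either were called. No gene of either list reached an unadjusted p under 0.05. Mcm7, a subunit of the replicative helicase, had 138, 151 and 123 CPM in HE libraries and 183, 247 and 132 CPM in EC libraries, which overlapped. Ccnd1, cyclin D, had 122, 163 and 205 CPM in HE libraries and 243, 194 and 315 CPM in EC libraries, also with overlap (-0.62 ± 0.31, edgeR adjusted p = 0.79). Of 25 genes of oxidative phosphorylation 21 were below 0 (median -0.09), of 26 of glycolysis and hypoxia 17 (median -0.17), and of 23 of cholesterol and lipid synthesis 3 (median 0.21), with 0 called in each.

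**Figure D3:**
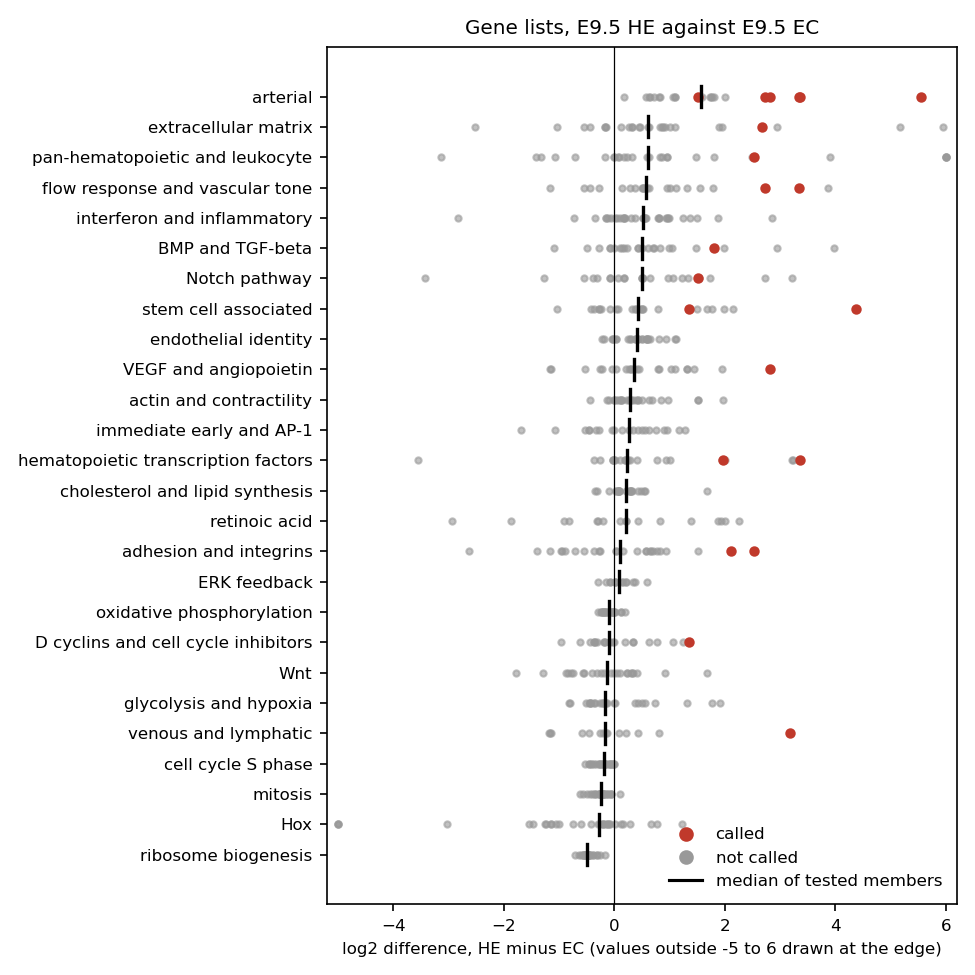
Log2 difference between E9.5 HE and EC (horizontal axis) of the tested members of 26 gene lists, ordered by their median (black bar); red points are called genes and grey points are not called. The arterial list has the highest median, 1.56, and the ribosome biogenesis list the lowest, -0.49.

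Interferon and inflammatory genes had 27 of 34 members with a log2 difference above 0 (median 0.52), 11 with HE libraries all above the EC libraries, against 7.78% of all genes, and 0 called. B2m, a chain of class I MHC, had 271, 312 and 368 CPM in HE libraries and 147, 164 and 181 CPM in EC libraries, without overlap (0.95 ± 0.28, edgeR adjusted p = 0.22). Of 28 pan-hematopoietic and leukocyte genes Cd44 was called, against 0.302% of all genes tested, and 20 were above 0 (median 0.61). Coro1a, an actin regulator of leukocytes, had 6.33, 11.3 and 6.7 CPM in HE libraries and 3.95, 2.12 and 0.874 CPM in EC libraries, without overlap (1.80 ± 0.44, edgeR adjusted p = 0.081). Of 24 stem cell associated genes Nupr1 and Cdkn1c were called, against 0.302% of all genes tested, and 17 were above 0 (median 0.43). Procr, the protein C receptor of stem cells and arterial endothelium, had 14.9, 24.0 and 25.3 CPM in HE libraries and 6.61, 5.35 and 6.82 CPM in EC libraries (1.77 ± 0.48, edgeR adjusted p = 0.14). Ace, the angiotensin-converting enzyme, had 6.28, 5.15 and 4.41 CPM in HE libraries and 0.0832, 0.863 and 0.131 CPM in EC libraries (3.86 ± 1.06, edgeR adjusted p = 0.16). Neither gene's groups overlapped. Actin and contractility genes had 22 of 27 above 0 (median 0.28), immediate early genes 13 of 21 (median 0.26), genes of ERK feedback 10 of 14 (median 0.08) and D cyclins and cell cycle inhibitors 8 of 22 (median -0.09), with Cdkn1c as the called member among these lists. With the block within each day edgeR called B2m, Coro1a, Procr and Ace higher, at adjusted p of 0.0062, 0.029, 0.0078 and 0.017.

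On the lower side edgeR called no gene in the fit of all 28 libraries, and the genes of smallest p that had at least 10 CPM in EC and no overlap are given as values. Gem, a small GTPase that restrains calcium channels, had 10.2, 11.1 and 6.75 CPM in HE libraries and 42.6, 21.0 and 30.9 CPM in EC libraries (-1.75 ± 0.41, edgeR adjusted p = 0.058). Kctd12 had 23.3, 26.8 and 36.1 CPM in HE libraries and 51.9, 57.5 and 67.7 CPM in EC libraries (-1.04 ± 0.35, edgeR adjusted p = 0.39). Abcc9, a regulatory subunit of potassium channels, had 8.13, 15.4 and 8.16 CPM in HE libraries and 22.1, 33.0 and 36.6 CPM in EC libraries (-1.53 ± 0.52, edgeR adjusted p = 0.39). Gem was called lower by DESeq2 (adjusted p = 0.0037), by limma voom (0.0051), with no filter (0.023), with the stricter filter (0.033) and with only the 6 libraries in the fit (0.032). Kctd12 and Abcc9 were called lower by limma voom (0.035 and 0.024) and were not called by DESeq2 (0.2 and 0.18). Among the same 12 genes Col3a1, a fibrillar collagen, had 1.51, 1.31 and 3.99 CPM in HE libraries and 18.1, 14.7 and 107 CPM in EC libraries, and Vcan, which encodes versican, had 2.6, 2.92 and 3.75 CPM in HE libraries and 6.45, 4.49 and 42.5 CPM in EC libraries. For both, EC replicate 3 held most of the EC signal. Col3a1 was called lower by edgeR with no filter (adjusted p = 0.041) and with only the 6 libraries in the fit (0.029). With a block in the latter fit it was 8.9e-05, and DESeq2 and limma voom did not call Col3a1. Of 32 Hox genes 25 had a log2 difference below 0 (median -0.27) and in 10 all HE libraries lay below the EC libraries, against 6.60% of all genes. By edgeR in the fit of all 28 libraries 0 were called and 5 were lower at an unadjusted p under 0.05, against 2.42%. Hoxa11 had 0 counts in the HE libraries and 1.25, 1.42 and 4.24 CPM in EC libraries (edgeR adjusted p = 0.083). It was at least 49.8-fold lower in HE when EC is set against the limit of 3 counts for the summed HE libraries. Hoxa11 was called lower by DESeq2 (adjusted p = 0.0014) and by limma voom (0.0018). By edgeR it was called lower with no filter (0.025), with only the 6 libraries in the fit (0.045) and with the 19 HE and EC libraries (0.036). Hoxa10 had 7.89, 10.1 and 2.63 CPM in HE libraries and 15.3, 15.3 and 18.5 CPM in EC libraries (-1.25 ± 0.53, edgeR adjusted p = 0.65).

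Markers of other cell types were read as list levels. Levels of a list are means of log2(CPM + 1) over its tested members. The erythroid list stood at 1.84, 1.43 and 1.35 in HE libraries and 1.33, 1.49 and 1.31 in EC libraries, with Slc4a1, the red cell anion exchanger, at 2.84, 0 and 0.0469 CPM in HE libraries and 0 in all EC libraries. Of 14 erythroid genes tested, 0 were called. Platelet and megakaryocyte genes stood at 1.32, 1.32 and 1.3 in HE libraries and 1.01, 1.34 and 1.44 in EC libraries, and Itgb3 was the called gene of 15, while Pf4 had 1.98, 0.96 and 0.141 CPM in HE libraries and 5.7, 2.72 and 4.77 CPM in EC libraries. Granulocyte and macrophage genes stood at 1.06, 0.984 and 0.981 in HE libraries and 0.869, 0.858 and 0.901 in EC libraries, with 0 of 15 called.

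Mesenchyme and smooth muscle genes stood at 2.22, 1.76 and 2.16 in HE libraries and 1.74, 1.82 and 3.55 in EC libraries, and cardiac genes at 1.53, 1.6 and 1.55 in HE libraries and 1.39, 1.53 and 2.05 in EC libraries. EC replicate 3 was the highest library for both lists. Its part in the values of Col3a1, Vcan and other matrix genes was not tested beyond leaving it out, and 28 of the 46 called genes were called without it. Endoderm and epithelium genes stood at 1.5, 1.04 and 1.8 in HE libraries and 0.883, 2.53 and 1.96 in EC libraries, with the keratin Krt8 at 4.16, 1.31 and 3.05 CPM in HE libraries and 0.665, 35.6 and 19.2 CPM in EC libraries. Germ cell genes stood at 2.1, 2.53 and 2.19 in HE libraries and 2.31, 2.76 and 2.13 in EC libraries, a level without 4 defining markers that were not tested. Of these, Dppa3 had 1, 2 and 0 counts in HE libraries and 0, 1030 and 1 counts in EC libraries, Pou5f1 0, 7 and 7 counts in HE libraries and 3, 71 and 0 counts in EC libraries, Tfap2c 0, 0 and 1 counts in HE libraries and 1, 24 and 0 counts in EC libraries, and Prdm14 was at 0 in all 6. Nearly all of these counts lay in EC replicate 2, and their part in the results was not tested beyond leaving that library out. EC replicate 2 was the highest library for these 2 lists. Endocardial genes, many of which other endothelium expresses, were the highest of the 12 lists and stood at 5.33, 4.85 and 5.24 in HE libraries and 4.54, 4.34 and 5.02 in EC libraries, and Npr3 and Vwf were called among 10. Mesonephros and intermediate mesoderm genes stood at 1.71, 1.37 and 1.5 in HE libraries and 1.09, 1.5 and 1.07 in EC libraries, and neural and neural crest genes at 2.00, 1.93 and 2.06 in HE libraries and 1.84, 1.89 and 2.27 in EC libraries. Ret was the called member of the mesonephros list, and Wt1 and Pax8, which mark these tissues, had 0 counts in all HE libraries. Wt1 had 0, 5.22 and 0.0437 CPM in EC libraries and Pax8 0, 0.561 and 0 CPM, so that EC replicate 2 held nearly all of both. Gata3, on the same list, had 131, 90.6 and 108 CPM in HE libraries and 38.6, 37.8 and 45.7 CPM in EC libraries (1.43 ± 0.37, edgeR adjusted p = 0.12). With the block within each day Gata3 was called (edgeR adjusted p = 0.0018). Somite genes stood at 0.938, 0.139 and 0.504 in HE libraries and 0.76, 0.724 and 0.743 in EC libraries, and of the 2 mast cell genes tested 1 had counts, in HE replicate 1.

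**Figure D4:**
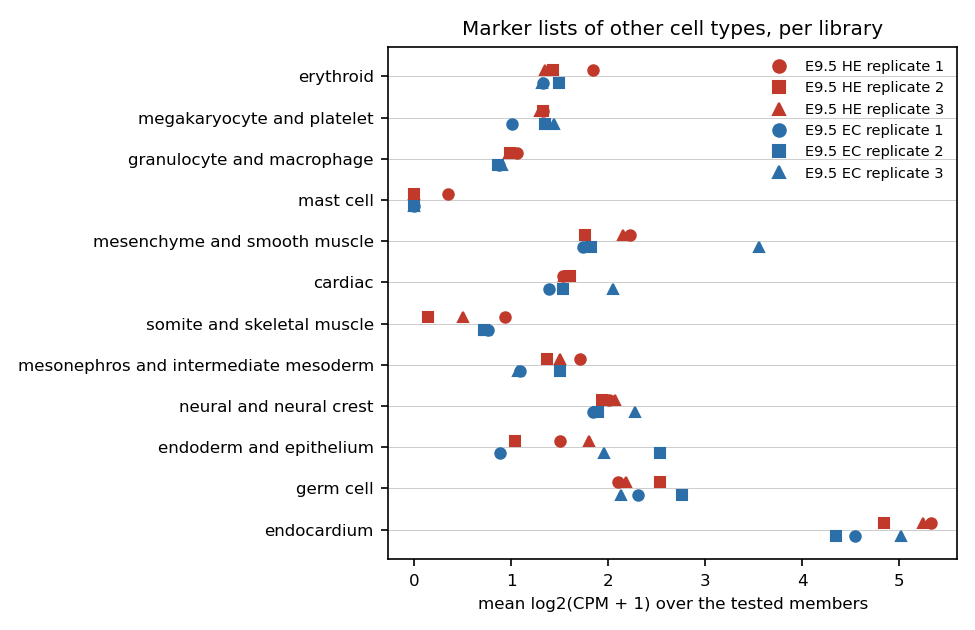
Mean log2(CPM + 1) over the tested members of 12 marker lists of other cell types, for each E9.5 HE library (red) and each E9.5 EC library (blue), with a symbol per replicate. EC replicate 3 is highest for mesenchyme and smooth muscle genes at 3.55, and EC replicate 2 for endoderm and epithelium genes at 2.53.

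Of the 46 genes, 42 were also called higher in HE at E10.5, where 2.11% of all genes were, and 23 at E8.5, where 5.08% were. Jag1 was called lower in HE at E8.5, as were 1.73% of all genes. All 46 had a log2 difference above 0 at E10.5, and 37 had one at E8.5. For 12 of the 46 the difference at E9.5 itself differed from that at E8.5, 7 being larger at E9.5, against 129 of all genes tested (0.847%), of which 25 (0.164%) were larger at E9.5. The 46 were chosen by their E9.5 difference, which is part of what this test compares. The share larger at E9.5 is therefore raised in part by that choice. By the same test against E10.5, 0 of the 46 were called and 2 of all genes were (0.0131%). Cdkn1c, Sp110, Ablim1 and Pde3a were called at E9.5 and at neither other day, and for none of the 4 did the difference itself differ from another day. The adjusted p of that test was 0.065 against E8.5 and 0.8 against E10.5 for Cdkn1c, and 0.081 against E8.5 for Ablim1.

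Runx1 had 3.46, 3.42, 3.14 and 1.03 CPM in E8.5 HE libraries and 4.43, 5.14 and 1.25 CPM in E8.5 EC libraries, and 39.5, 43.0 and 52.3 CPM in E10.5 HE libraries and 1.81, 2.51 and 2.21 CPM in E10.5 EC libraries. Its difference at E9.5 exceeded that at E8.5 by 3.76 ± 0.50 on the log2 scale (edgeR adjusted p = 0.00012). EC libraries held a few CPM at every day and HE libraries were above them from E9.5. Cd44 had 27.9, 30.5, 81.5 and 50.9 CPM in E8.5 HE libraries and 40.2, 35.3 and 63.0 CPM in E8.5 EC libraries, and 189, 252 and 252 CPM in E10.5 HE libraries and 21.9, 24.5 and 20.1 CPM in E10.5 EC libraries (E9.5 against E8.5 2.47 ± 0.41, edgeR adjusted p = 0.0013). Gja4 had 354, 253, 482 and 288 CPM in E8.5 HE libraries and 277, 290.2 and 249 CPM in E8.5 EC libraries, and 1607, 1451 and 1859.8 CPM in E10.5 HE libraries and 153, 226 and 122 CPM in E10.5 EC libraries (2.38 ± 0.48, edgeR adjusted p = 0.0088). In both genes the E9.5 EC libraries lay below the E8.5 EC libraries. Jag1 had 165, 114, 182 and 229.6 CPM in E8.5 HE libraries and 391.7, 357 and 745 CPM in E8.5 EC libraries, so that HE was below EC, and 1375, 1236 and 862 CPM in E10.5 HE libraries and 161, 266 and 153 CPM in E10.5 EC libraries (3.04 ± 0.45, edgeR adjusted p = 0.00043). Nupr1, Alpk3 and Gcnt2, an enzyme that branches glycans, also had a larger difference at E9.5 than at E8.5, by 4.19 ± 0.79, 3.08 ± 0.56 and 2.48 ± 0.42 (edgeR adjusted p = 0.0056, 0.0048 and 0.0021).

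The difference of 5 called genes was smaller at E9.5 than at E8.5. Gja5 had 19.6, 17.0, 66.7 and 37.8 CPM in E8.5 HE libraries and 0.0806, 0.0785 and 0.188 CPM in E8.5 EC libraries, and 369, 439.6 and 435 CPM in E10.5 HE libraries and 23.6, 54.2 and 19.3 CPM in E10.5 EC libraries. Its difference at E9.5 minus that at E8.5 was -4.95 ± 1.01 (edgeR adjusted p = 0.0099), where the E8.5 EC libraries held next to nothing. Nkx2-3 had 2.25, 7.3, 8.22 and 2.28 CPM in E8.5 HE libraries and 0 in all E8.5 EC libraries, and 26.5, 31.8 and 30.7 CPM in E10.5 HE libraries and 1.07, 3.5 and 1.71 CPM in E10.5 EC libraries. The fitted change from E8.5 was -6.70 ± 1.35 (edgeR adjusted p = 0.0098) and its size depends on how a count of 0 is treated. For Clu, Npr3 and Ptplad2 the difference at E9.5 minus that at E8.5 was -3.41 ± 0.44, -2.31 ± 0.53 and -5.31 ± 0.76 (edgeR adjusted p = 0.00012, 0.028 and 0.0003). Ptplad2 averaged 0.0134 CPM in the E8.5 EC libraries, so the size of its change also depends on how counts near 0 are treated. The change of Npr3 lost its call without any of the E9.5 libraries but EC replicate 2, at adjusted p from 0.053 to 0.11, and the other 11 changes stayed called without any 1 of the 6. The median log2 difference of the arterial list was 1.24 at E8.5, 1.56 at E9.5 and 2.28 at E10.5, and that of the venous and lymphatic list was 1.11, -0.18 and -1.04. That of ribosome biogenesis genes was -0.83, -0.49 and -0.69.

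Spry1 and Oit3 were the 2 genes whose difference at E9.5 differed from that at E10.5. Spry1, a feedback inhibitor of receptor tyrosine kinases, had 8.79, 13.4 and 15.9 CPM in E9.5 HE libraries and 20.0, 13.6 and 13.3 CPM in E9.5 EC libraries, which overlapped, and 2.59, 0.884 and 1.14 CPM in E10.5 HE libraries and 23.6, 16.3 and 23.0 CPM in E10.5 EC libraries. The difference between the days was 3.45 ± 0.61 (edgeR adjusted p = 0.04). Oit3, a secreted protein of liver and sinusoidal endothelium, had 11.9, 6.85 and 5.86 CPM in E9.5 HE libraries and 7.69, 13.5 and 4.72 CPM in E9.5 EC libraries, also overlapping, and 0.072, 0 and 0 CPM in E10.5 HE libraries and 9.28, 25.8 and 7.64 CPM in E10.5 EC libraries (8.67 ± 1.49, edgeR adjusted p = 0.04). Spry1 was still called without HE replicate 1 and Oit3 without HE replicate 3, and without any other of the 6 E9.5 libraries the adjusted p was 0.083 to 0.16 for Spry1 and 0.053 to 0.15 for Oit3.

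**Figure D5:**
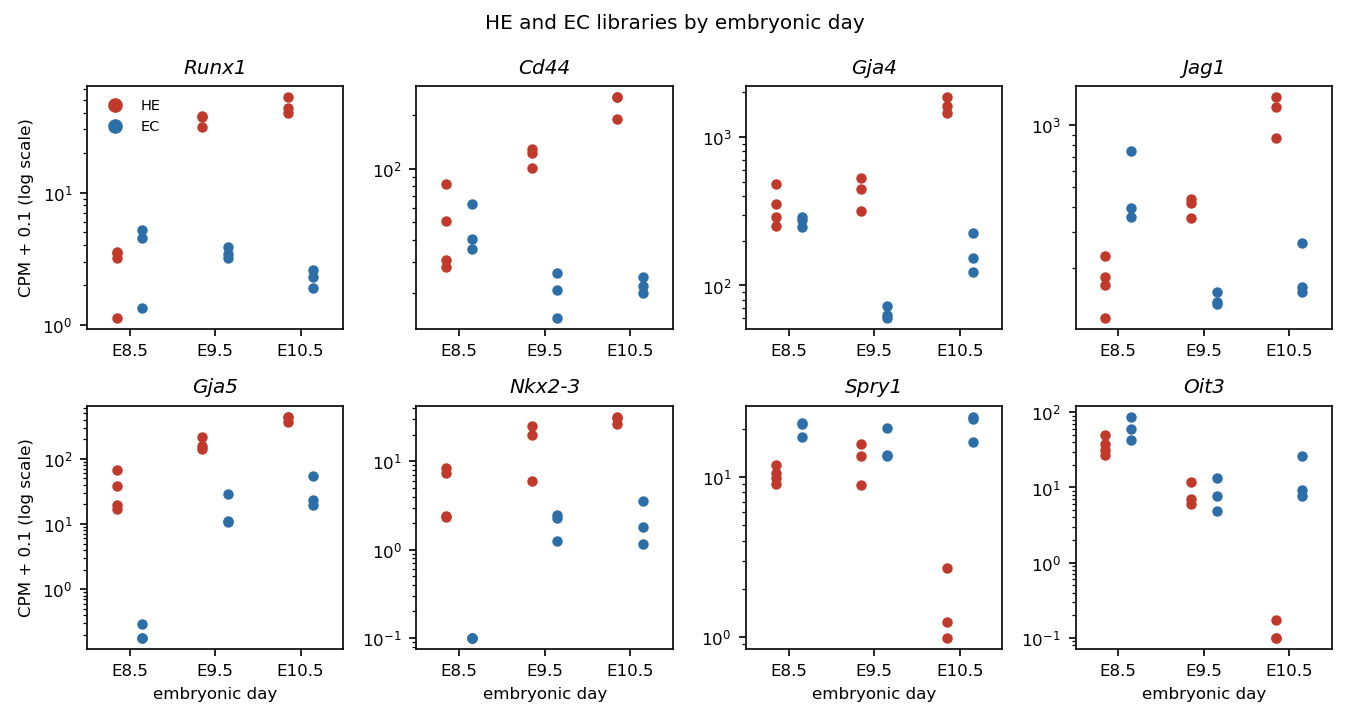
CPM + 0.1 (log scale) of 8 genes in each HE library (red) and EC library (blue) at E8.5, E9.5 and E10.5. For Runx1, HE and EC overlap at E8.5 and are apart at E9.5 and E10.5; for Jag1, HE lies below EC at E8.5 and above it at E9.5 and E10.5; for Spry1 and Oit3, HE and EC overlap at E9.5 and HE is lower at E10.5.

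The 46 genes were also read in the pro-HSC/HPC population of the same day, as levels only, since a comparison with HE would share the HE libraries. The pro-HSC/HPC mean was above the HE mean in 34 of them, against 52.7% of all genes tested, below it in 12 and below the EC mean in 0. The mean of Runx1 was 254 ± 25.1 CPM in pro-HSC/HPC and 35.04 ± 3.67 CPM in HE (SD, n = 3 each), Nupr1 232 ± 33.0 CPM in pro-HSC/HPC and 9.04 ± 2.57 CPM in HE, Ikzf2 132 ± 12.5 CPM in pro-HSC/HPC and 21.1 ± 7.95 CPM in HE, and Itgb3 99.0 ± 16.8 CPM in pro-HSC/HPC and 12.2 ± 2.45 CPM in HE. HE lay between EC and pro-HSC/HPC for these genes. Sat1 averaged 632 ± 18.4 CPM in pro-HSC/HPC and 1149 ± 106 CPM in HE, Npr3 97.3 ± 36.4 CPM in pro-HSC/HPC and 186 ± 44.2 CPM in HE, and Jag1 267 ± 44.7 CPM in pro-HSC/HPC and 403 ± 43.8 CPM in HE. For these genes HE held the highest mean of the 3 E9.5 populations. Gja4 and Tmem100 averaged 464 ± 71.0 and 265 ± 19.2 CPM in pro-HSC/HPC and 432 ± 108 and 328 ± 94.6 CPM in HE, within the spread of the libraries.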

How the data were processed

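Polyadenylated RNA of 100 sorted cells was amplified with the SMARTer Ultra Low Input kit, as the labels' protocols state. The authors deposited raw counts per gene, unscaled, and the submitters' processing notes name TopHat, SAMtools, Subread, featureCounts 1.6.2 and the build mm9. The strand option, the handling of multi-mapping reads and the gene annotation are not given in those notes, so values of genes with near-identical copies or overlapping partners are uncertain.

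From these counts, edgeR 4.0.16 in R 4.3.3 fitted a quasi-likelihood model with 1 coefficient for each of 9 populations to all 28 libraries, with TMM scaling and filterByExpr (minimum count 10), which kept 15238 of 24015 genes. The spread is thus shared by all populations. A gene counted as called when its p, adjusted by Benjamini and Hochberg over all genes tested, was under 0.05. Differences between days were contrasts of the same model. Counts and medians over all genes tested serve as the background of the lists. Intervals and floors cover counting error only. Every pair of libraries within E9.5 HE and within E9.5 EC differed by far more than sampling noise (chi-square of at least 39.2 for each degree of freedom).

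Described genes were the called genes (per-library values for those with at least 10 CPM in HE and no overlap, up to 30), up to 12 genes of smallest p on a side with few calls, a panel, up to 4 members of smallest p of each of 26 gene lists and 12 marker lists, and up to 5 for each difference between days. The comparison, its members and the lists were chosen with earlier results of these data known. The model was also run on simulated counts with known changes and no replicate effect. The outcome of that run is not given here, and no result above rests on it. Alternatives used DESeq2 1.42.0 and limma 3.58.1, other scalings, filters and sets of libraries, a replicate block and leaving out each library.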

Additional observations from a re-analysis of the deposited data

Results flagged for a closer look

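For 21 described genes the HE-EC difference at E9.5 differed from that at E8.5 by the test of the difference (edgeR adjusted p under 0.05). On the log2 scale, E9.5 minus E8.5, it was larger at E9.5 for Nupr1 (4.19), Runx1 (3.76), Coro1a (3.30), Alpk3 (3.08), Jag1 (3.04), Procr (2.75), Gcnt2 (2.48), Cd44 (2.47) and Gja4 (2.38). It was smaller at E9.5 for Trpc6 (-9.98), Cd109 (-7.70), Nkx2-3 (-6.70), Atxn1 (-6.01), Cyp26b1 (-5.63), Ptplad2 (-5.31), Gja5 (-4.95), Sema6d (-3.93), Clu (-3.41), Npr3 (-2.31), B2m (-1.73) and Dusp6 (-1.59). Trpc6 and Nkx2-3 were at 0 in every E8.5 EC library, so the size of their values depends on how a count of 0 is treated. The same holds for Ptplad2 and Gja5, which averaged 0.0134 and 0.116 CPM in the E8.5 EC libraries. Against E10.5 the difference at E9.5 was higher by 3.45 for Spry1 and by 8.67 for Oit3, which was at 0 in 2 of the 3 E10.5 HE libraries.

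Among the 8 genes whose 4 E8.5 HE libraries are given one by one, Runx1 had 1 library far from the others, replicate 4 with 1.03 CPM. Chance alone gives such a gap in about 1 in 20 groups.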

How the results depend on the processing

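With the numbers given as higher and lower in HE, against 46 and 0, DESeq2 called 145 and 11 genes, limma voom 249 and 38, no filter 93 and 7, the stricter filter 68 and 2, a fit of only the libraries compared 125 and 15, and a fit of the 19 HE and EC libraries 29 and 1. Leaving out 1 library gave 11 to 38 higher and 0 lower. Of the 46 genes, 46 remained called by DESeq2, limma voom, both other scalings and no filter, 36 with only the libraries compared, and 28 with the 19 libraries. The pairing of samples by replicate number is uncertain. Same-numbered HE and EC libraries correlated in their deviations at 0.0286, 0.116 and 0.107 on the log2 CPM scale of edgeR, where 1 pair missed the limit of 0.1, and at 0.105, 0.279 and 0.263 on log2(CPM + 1), where all passed it, and each library correlated best with its own number. The values in the text are from the fit without a block unless a block is named. A replicate block gave 53 higher and 0 lower, with only the libraries compared 411 and 239, and a block within each day, chosen after seeing the data, 150 and 18. For the difference from E8.5, against 129, the counts were 293 (DESeq2), 289 (limma voom), 75 (only the libraries compared), 298 (block within each day), 40 (block with only the libraries compared) and 83 to 107 with 1 library left out. For that from E10.5, against 2, they were 40 (DESeq2), 48 (limma voom), 10 (no filter), 0 (replicate block), 31 (block within each day) and 0 to 2 with 1 library left out. Among described genes called in the main fit or in the alternative, no direction turned. The causes were not tested.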
